A study of Mus musculus with 6 samples.

Results

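The genes described here encode the partners of the HBO1 and MOZ/MORF histone acetyltransferase complexes, in which the chromatin readers ING4 and ING5 sit. The 10 members were chosen by name, by a rule that uses no measured value. They are the catalytic subunits Kat7 (HBO1), Kat6a (MOZ) and Kat6b (MORF), the BRPF scaffolds Brpf1, Brd1 and Brpf3, the JADE scaffolds Jade1, Jade2 and Jade3, and the small shared subunit Meaf6. All 10 were found among the 49315 genes counted, of which 21811 were protein-coding. Positions are those of the counted genes, whose exons follow the GENCODE annotation of mouse build GRCm38 (mm10).

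RNA was sequenced in bulk from 6 pools of sorted bone marrow cells, 3 from WT mice and 3 from ING4-/- mice. In each genotype, marrow of 8 to 10 mice was combined and depleted of lineage-positive cells, and 1000 to 10000 cells of each population were sorted. The populations were long-term hematopoietic stem cells (LT-HSCs, lineage- Sca1+ cKit+ CD48- CD34- CD150+), short-term stem cells (ST-HSCs, the same gate but CD34+) and multipotent progenitors (MPPs, CD34+ CD150-), and values of a genotype are given in that order throughout. Control mice of the study were WT C57BL/6 and SJL-Ptprca Pepcb/BoyJ, all at least 8 weeks old. ING4-/- mice are homozygous for the loss of Ing4, and their strain background and age at harvest were not given in the sources used here. Each population had 1 library per genotype, so in the comparison of genotypes the 3 populations stood in for replicates, and the p-values measure the spread between populations and not between animals. In bulk RNA, fewer cells of a type and less RNA per cell cannot be told apart.

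The catalytic subunits belong to the MYST family, named for its founding acetyltransferases, and each works on nucleosomes only inside a complex. A scaffold of the BRPF or JADE family holds the catalytic subunit, MEAF6 and ING4 or ING5 together, and the scaffold steers HBO1 between histone tails: toward H3 with a BRPF protein and toward H4 with a JADE protein. The PHD finger of ING4 and ING5 binds methylated histone H3 at active promoters. MOZ is required for the emergence and upkeep of hematopoietic stem cells, and HBO1 also takes part in the licensing of replication origins.

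Total counts were 7839326 to 9363442 in the WT libraries and 35596876 to 39192588 in the ING4-/- libraries. The WT libraries also held counts spread over genes of sensory neurons: 1432 olfactory and vomeronasal receptor genes, which serve here as a measure of background, had 18.1 to 22.7 counts per kb of exon in WT and at most 0.0851 in ING4-/-. That density would amount to 22.6% to 33.4% of all WT counts if it held for every gene. The sort markers Kit, Ly6a (Sca1), Cd34 and Slamf1 (CD150) were counted in every library, and Cd48, which all 3 gates exclude, had 50 to 376 counts in WT and 0, 1077 and 4300 in ING4-/-. Markers of other blood cells also differed by genotype. The summed CPM, counts scaled to the size of the library, of 7 erythroid markers was 19.1 to 32.1 in WT and 88.3 to 184 in ING4-/-, with Alas2 at 0 in every ING4-/- library. The 6 B cell markers summed to 94.7 to 114 CPM in WT and 64.6 to 112 in ING4-/-. Cd79a, Ebf1, Ms4a1 and Pax5 were at 0 in every ING4-/- library, and Cd79b had 2191 to 3508 counts there and 244 to 324 in WT. The 6 T and NK cell markers summed to 72.1 to 143 CPM in WT and 61.5 to 308 in ING4-/-, with Cd3e and Cd8a at 0 in all ING4-/- libraries, and 9 granulocyte and monocyte markers summed to 35.4 to 192 and 73.7 to 321, with Ly6g at 0 in all ING4-/- libraries. The part of these cells in the values of the members was not tested.

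Ing4 itself, the targeted gene (chr6:125039760-125049265, plus strand), had 247, 162 and 247 counts in WT and 0, 24 and 76 in ING4-/-, which matches the labels in direction. As counted, 62.9% of all genes tested were likewise lower in every ING4-/- library. The WT counts of Ing4 were 1.34 to 2.57 times the background for its length. Its log2 fold change was -4.49 ± 1.56 (SE; adjusted p = 0.0373 by the quasi-likelihood test of edgeR, Benjamini-Hochberg adjusted, 0.000737 to 0.0863 over the alternatives, and 0.0783 with population as a replicate block). It ranged from -3.88 without the ING4-/- LT-HSC library to -5.84 without the ING4-/- MPP library, and the call was lost in 4 of the 6 fits that left out 1 library. The call was also lost with background subtracted (-4.24, edgeR adjusted p = 0.0863). Of the exonic bases of Ing4, 34.9% also lie in the predicted gene Gm44597 on the same strand. Ing5, its paralog and the other reader of these complexes, had 620, 219 and 618 counts in WT and 1542, 692 and 1538 in ING4-/-, and its log2 fold change was -0.36 ± 0.507 (SE; edgeR adjusted p = 0.569). Ing5 was lowest in ST-HSCs in both genotypes, at 4.99 CPM per kb of exon in WT and 4.63 in ING4-/-. In the other libraries Ing5 stood between 9.59 and 13.8 CPM per kb.

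No member passed the test between genotypes. The call asked for an adjusted p below 0.05 together with a log2 fold change beyond 1 in size, which 64.6% of the 31001 genes tested met, 7.98% as higher in ING4-/- and 56.7% as lower. At an unadjusted p under 0.05 stood 1 member, Meaf6, and 21262 of the 31001 genes. The log2 fold changes of the members ran from -2.87 (Kat6b) to 0.97 (Meaf6), with 8 negative and 2 positive and a median of -0.37, beside a median of -6.85 over all genes tested. Among the 9673 genes that reached 10 counts in each library the median was 0.020 and 18.0% were called. The 6 members among them had a median of -0.69, and Jade1 was called lower. After the background density of each library had been subtracted from every count, 44.4% of 19745 genes were called and none of the 9 members tested, whose median was -0.47 beside -0.93 over all genes. The scaling moved the members together: the median of all genes was -7.17 with DESeq2 size factors and -6.35 with upper-quartile scaling, and the latter made the log2 fold changes of Kat7, Kat6a, Brpf3 and Jade3 positive.

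**Figure D1:**
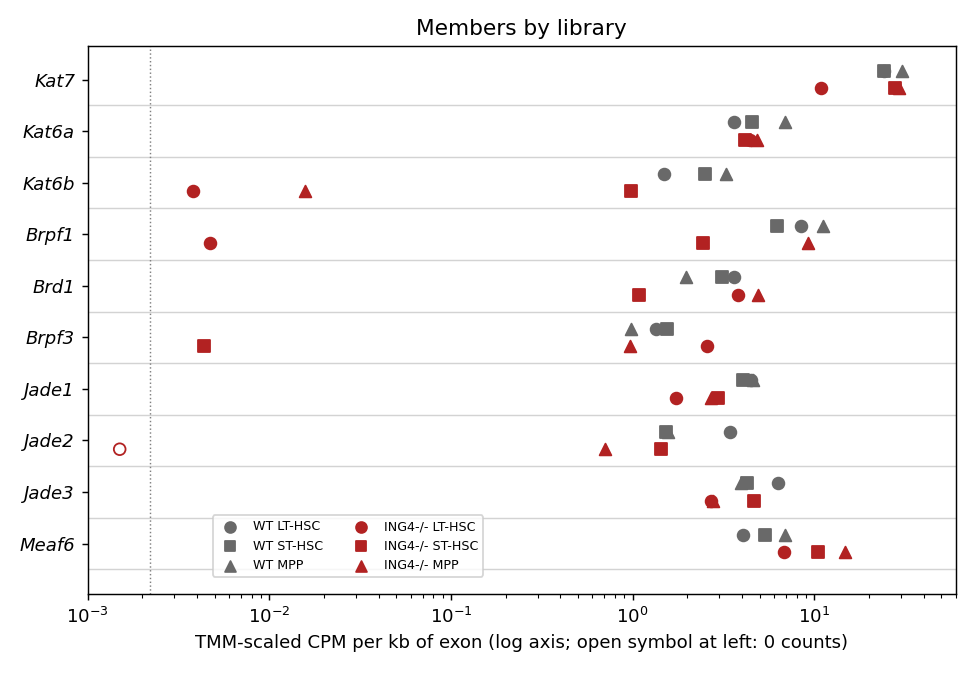
Level of each member in each library, as TMM-scaled CPM per kb of exon on a log axis, with WT in gray above and ING4-/- in red below. Circles are LT-HSCs, squares ST-HSCs and triangles MPPs, and the open circle marks the 0 counts of Jade2 in ING4-/- LT-HSCs. The WT points of a gene lie close together, while Kat6b, Brpf1, Brpf3 and Jade2 each have an ING4-/- library far to the left.

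Kat7, the catalytic subunit of HBO1 complexes (chr11:95274259-95310246, minus strand, 5536 exonic bases), was the most abundant member in both genotypes. It is shown with its promoter because its level stands above all the others. The 300 bases around its start, chr11:95310197-95310496 on the minus strand of GRCm38.p6 in RefSeq, run from 250 bases before the start to 50 after it, with CG dinucleotides in capitals.
Kat7: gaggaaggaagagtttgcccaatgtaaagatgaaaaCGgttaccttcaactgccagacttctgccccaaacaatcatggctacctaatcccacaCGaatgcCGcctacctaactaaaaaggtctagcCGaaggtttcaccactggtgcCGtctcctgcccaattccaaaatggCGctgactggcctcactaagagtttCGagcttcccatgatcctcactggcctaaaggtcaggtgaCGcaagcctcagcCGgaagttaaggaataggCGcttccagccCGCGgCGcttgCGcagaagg
Kat7 had 1274, 1252 and 1723 counts in WT and 1899, 4852 and 5522 in ING4-/-. As TMM-scaled CPM per kb these were 24.2, 24.3 and 30.5 in WT and 11.0, 27.7 and 29.4 in ING4-/-, or 26.4 ± 3.61 and 22.7 ± 10.2 (SD, n = 3 populations). Only ING4-/- LT-HSCs stood apart, at 2.21-fold below WT LT-HSCs (95% interval 2.06 to 2.38, counting error only), and the other ING4-/- libraries lay within the WT range. Between genotypes Kat7 differed by -0.22 ± 0.381 on the log2 scale (SE; edgeR adjusted p = 0.650, 0.0769 to 0.768 over the alternatives). Without the ING4-/- LT-HSC library it was 0.14, and with background subtracted it was -0.91.

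Kat6a, the catalytic subunit of MOZ complexes (chr8:22859535-22943259, plus strand, 9180 exonic bases), was the steadiest member in ING4-/-. Its counts were 315, 387 and 648 in WT and 1266, 1209 and 1508 in ING4-/-. Per kb these were 3.61, 4.54 and 6.93 CPM in WT and 4.41, 4.16 and 4.84 CPM in ING4-/-. The ING4-/- values lay inside the WT range, and the highest was 1.16 times the lowest. WT counts of Kat6a were 1.53 to 3.90 times the background for its length. Net of background the WT levels ran from 1.26 CPM per kb in LT-HSCs to 5.15 in MPPs, beside 4.16 to 4.84 in ING4-/-. The genotype difference was -0.17 ± 0.344 on the log2 scale (SE; edgeR adjusted p = 0.697, 0.190 to 0.999 over the alternatives), and it was 0.49 once the trend on gene length had been removed.

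Kat6b, the catalytic subunit of MORF complexes and the longest member (chr14:21481434-21672478, plus strand, 16826 exonic bases), was nearly absent from a pair of ING4-/- libraries. It had 238, 393 and 563 counts in WT and 2, 519 and 9 in ING4-/-. Per kb the WT levels were 1.49, 2.51 and 3.28 CPM and the ING4-/- levels 0.00380, 0.975 and 0.0158 CPM, so the genotypes did not overlap as counted. ING4-/- MPPs were 208-fold below WT MPPs (95% interval 109 to 458, background included). The log2 fold change of -2.87 ± 1.75 (SE) did not pass (edgeR adjusted p = 0.192, 0.00129 to 0.685 over the alternatives). With population as a replicate block, where 60.9% of genes were called, Kat6b was called at -6.36 (edgeR adjusted p = 0.0489). Without the ING4-/- ST-HSC library, where 22015 of 32531 genes were called, it was called at -7.86 (edgeR adjusted p = 0.00129). The WT counts of Kat6b were 0.632, 1.03 and 1.85 times what the background density gives for its length, so WT expression above background was not detectable in LT-HSCs. Net of background the WT levels were 0 to 1.51 CPM per kb, which overlapped ING4-/- (0.00108 to 0.973), and the log2 fold change was -1.44.

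**Figure D2:**
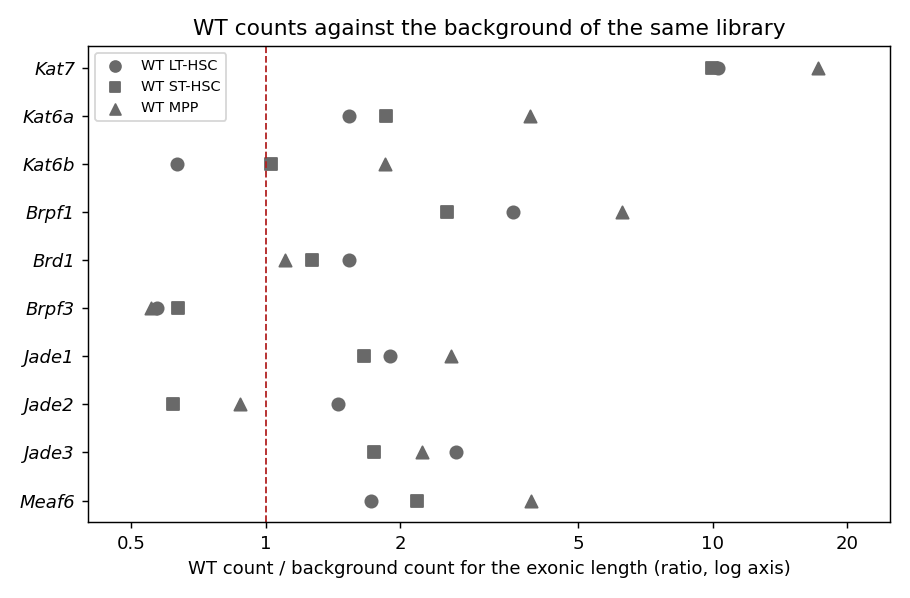
WT count of each member divided by the count that the background density of the same library gives for its exonic length, on a log axis. The dashed line at 1 marks a count equal to that background. Kat7 stands at 9.95 to 17.2, Brpf3 lies below 1 in every WT library, and Kat6b and Jade2 lie on both sides of 1.

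The BRPF scaffolds were uneven between the ING4-/- libraries. Brpf1, the scaffold that activates MOZ and MORF (chr6:113307137-113324860, plus strand, 6779 exonic bases), lies on the same chromosome as Ing4. Its promoter is shown because the gene went from 1 count to the highest count of the BRPF scaffolds within ING4-/-. The window is chr6:113306887-113307186, plus strand, GRCm38.p6 in RefSeq, with CG dinucleotides in capitals.
Brpf1: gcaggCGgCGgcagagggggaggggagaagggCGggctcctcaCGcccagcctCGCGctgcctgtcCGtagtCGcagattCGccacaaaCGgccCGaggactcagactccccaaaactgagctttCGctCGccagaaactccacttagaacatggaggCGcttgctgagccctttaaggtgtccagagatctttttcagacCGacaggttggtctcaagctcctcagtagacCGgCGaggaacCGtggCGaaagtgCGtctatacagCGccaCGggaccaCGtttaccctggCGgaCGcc
Brpf1 had 543, 392 and 770 counts in WT and 1, 521 and 2139 in ING4-/-. Per kb these were 8.44, 6.23 and 11.1 CPM in WT and 0.00471, 2.43 and 9.30 CPM in ING4-/-. ING4-/- LT-HSCs, at 1 count, were 1790-fold below WT LT-HSCs (95% interval 320 to 70820), whereas ING4-/- MPPs were 1.20-fold below WT MPPs (1.10 to 1.30). Both folds include the WT background, and WT counts of Brpf1 were 2.54 to 6.28 times that background. Net of background, MPPs stood at 9.37 CPM per kb in WT and 9.30 in ING4-/-. For Brpf1 the log2 fold change was -1.14 ± 1.55 (SE; edgeR adjusted p = 0.556, 0.208 to 0.763 over the alternatives). It ranged from -0.53 without the ING4-/- LT-HSC library to -2.79 without the ING4-/- MPP library.

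Brd1 (BRPF2), a scaffold of HBO1 (chr15:88687300-88734233, minus strand, 8138 exonic bases), had 280, 235 and 163 counts in WT and 969, 278 and 1352 in ING4-/-. Per kb these were 3.62, 3.11 and 1.97 CPM in WT and 3.80, 1.08 and 4.90 CPM in ING4-/-. The genotypes overlapped, with ING4-/- ST-HSCs lowest and ING4-/- MPPs highest of the 6 libraries as counted. Within populations the log2 ratio of ING4-/- to WT was 0.07, -1.51 and 1.31. The log2 fold change of 0.17 ± 0.625 (SE; edgeR adjusted p = 0.833, 0.280 to 0.973 over the alternatives) changed sign with DESeq2 size factors (-0.21), and with background subtracted it was 1.37. WT counts of Brd1 were 1.11 to 1.54 times the background for its length. Net of background its levels were 0.190 to 1.27 CPM per kb in WT and 1.08 to 4.90 in ING4-/-. ING4-/- was then higher in every population, ST-HSCs included.

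Brpf3, the other HBO1 scaffold of this family (chr17:28801090-28838546, plus strand, 7194 exonic bases), was the lowest member in WT. It had 92, 104 and 72 counts in WT, 0.553 to 0.636 times the background, so WT expression above background was not detectable. In ING4-/- it had 579, 1 and 235 counts, or 2.57, 0.00440 and 0.963 CPM per kb beside 1.35, 1.56 and 0.982 in WT. ING4-/- LT-HSCs stood highest of the 6 libraries and ING4-/- ST-HSCs lowest as counted. No fold within a population is given here, since the WT levels did not exceed background. For Brpf3 the log2 fold change of the counts, background included, was -0.13 ± 1.46 (SE; edgeR adjusted p = 0.945, 0.434 to 0.996 over the alternatives), 0.47 without the ING4-/- ST-HSC library and -1.39 without the ING4-/- LT-HSC library.

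Summed per kb, the BRPF scaffolds reached 13.4, 10.9 and 14.1 CPM in WT and 6.38, 3.51 and 15.2 CPM in ING4-/-. Brpf1 held the largest share in every WT library (57.2% to 79.1%) and in ING4-/- ST-HSCs (69.1%) and MPPs (61.3%). In ING4-/- LT-HSCs Brd1 held 59.6%. Net of background the sums were 7.35, 4.44 and 9.56 CPM in WT and 6.37, 3.51 and 15.2 CPM in ING4-/-.

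Among the JADE scaffolds, Jade1 (chr3:41555731-41616864, plus strand, 8492 exonic bases) was lower in every ING4-/- library than in any WT library as counted, but not net of background. JADE1 brings HBO1 to histone H4 and is also known as a kidney protein that the VHL tumor suppressor stabilizes. It had 360, 321 and 399 counts in WT and 463, 794 and 776 in ING4-/-, or 4.46, 4.07 and 4.61 CPM per kb against 1.74, 2.96 and 2.69. The log2 ratios within populations were -1.35, -0.46 and -0.77. The log2 fold change of -0.83 ± 0.386 (SE) did not pass (edgeR adjusted p = 0.0980, 0.000675 to 0.650 over the alternatives). Jade1 was called lower with DESeq2 size factors (-1.20, where 62.6% of genes were called), with DESeq2 itself (-1.18, where 62.4% were), among protein-coding genes only (-1.18, where 46.4% were) and with at least 10 counts in every library (-1.34, edgeR adjusted p = 0.0475). With that minimum and population as a replicate block the last of these calls was lost (-1.37, edgeR adjusted p = 0.0790). It was -0.24 with upper-quartile scaling. WT counts of Jade1 were 1.66 to 2.60 times the background. Net of background its levels were 1.62 to 2.84 CPM per kb in WT and 1.74 to 2.95 in ING4-/-, which overlapped, and its log2 fold change was -0.64 (edgeR adjusted p = 0.383).

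Jade2 (chr11:51813455-51857653, minus strand, 10760 exonic bases), whose protein has also been described as a ubiquitin ligase for the demethylase LSD1, had 350, 152 and 171 counts in WT and 0, 488 and 257 in ING4-/-. Per kb these were 3.43, 1.52 and 1.56 CPM in WT and 0, 1.43 and 0.704 CPM in ING4-/-. No ING4-/- library reached the lowest WT library, and ING4-/- LT-HSCs were at least 384.5-fold below WT LT-HSCs, taking 3 counts in the library as the limit that a count of 0 allows and with background included. In ST-HSCs the genotypes differed by 1.06-fold (95% interval 0.878 to 1.27). For Jade2 the log2 fold change was -1.60 ± 1.64 (SE; edgeR adjusted p = 0.429, 0.187 to 0.972 over the alternatives), -0.99 without the ING4-/- LT-HSC library and -2.59 without the ING4-/- ST-HSC library. WT counts were 0.621 to 1.45 times the background. Net of background the levels were 0 to 1.07 CPM per kb in WT and 0 to 1.43 in ING4-/-, which overlapped, and the log2 fold change was 0.15.

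Jade3 (chrX:20425688-20519939, plus strand, 5084 exonic bases) had no nearly empty library. It had 304, 202 and 206 counts in WT and 430, 750 and 477 in ING4-/-, or 6.30, 4.28 and 3.98 CPM per kb against 2.70, 4.67 and 2.77. The ranges overlapped through ING4-/- ST-HSCs. The log2 fold change was -0.52 ± 0.473 (SE; edgeR adjusted p = 0.374, 0.0788 to 0.903 over the alternatives). Summed per kb, the JADE scaffolds reached 14.2, 9.87 and 10.1 CPM in WT and 4.44, 9.06 and 6.16 CPM in ING4-/-, and Jade3 held the largest share in every library except WT MPPs, where Jade1 held 45.4%. Net of background the JADE sums were 7.12, 3.45 and 5.04 CPM in WT and 4.44, 9.05 and 6.16 CPM in ING4-/-, so that ING4-/- was then above WT in ST-HSCs and MPPs.

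Meaf6, the small subunit that all of these complexes share and that is also found in TIP60 complexes (chr4:125085134-125113238, plus strand, 5211 exonic bases), was the only member higher in ING4-/- than in WT in all 3 populations as counted. Net of background, Brd1 and Brpf3 were higher in all 3 as well. The promoter of Meaf6 is shown for its place as counted, as chr4:125084884-125085183, plus strand, GRCm38.p6 in RefSeq, with CG dinucleotides in capitals.
Meaf6: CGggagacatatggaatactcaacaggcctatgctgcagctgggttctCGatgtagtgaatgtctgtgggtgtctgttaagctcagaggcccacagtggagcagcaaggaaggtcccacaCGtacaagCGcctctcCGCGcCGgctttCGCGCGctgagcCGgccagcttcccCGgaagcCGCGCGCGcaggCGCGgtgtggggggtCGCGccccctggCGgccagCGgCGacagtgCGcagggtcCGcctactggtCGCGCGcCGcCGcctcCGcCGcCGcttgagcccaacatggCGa
Meaf6 had 201, 259 and 369 counts in WT and 1119, 1726 and 2600 in ING4-/-. Per kb these were 4.06, 5.35 and 6.95 CPM in WT and 6.86, 10.5 and 14.7 CPM in ING4-/-. In both genotypes the level went up from LT-HSCs to ST-HSCs to MPPs, and the genotypes overlapped only through WT MPPs, which lay just above ING4-/- LT-HSCs. Net of background they did not overlap, at 1.71 to 5.17 CPM per kb in WT and 6.86 to 14.7 in ING4-/-. The log2 ratio of ING4-/- to WT was 0.75, 0.97 and 1.08. For Meaf6 the log2 fold change was 0.97 ± 0.403 (SE; edgeR adjusted p = 0.0695, 0.00943 to 0.469 over the alternatives), so Meaf6 stood just short of both parts of the call. It was called with upper-quartile scaling, where 69.8% of genes were called (1.56, edgeR adjusted p = 0.00943), and without the ING4-/- LT-HSC library, where 22874 of 32543 were (1.23, edgeR adjusted p = 0.0186). With at least 10 counts in every library it was 0.47 (edgeR adjusted p = 0.447). Its WT counts were 1.72 to 3.91 times the background, and with background subtracted its log2 fold change was 0.91.

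**Figure D3:**
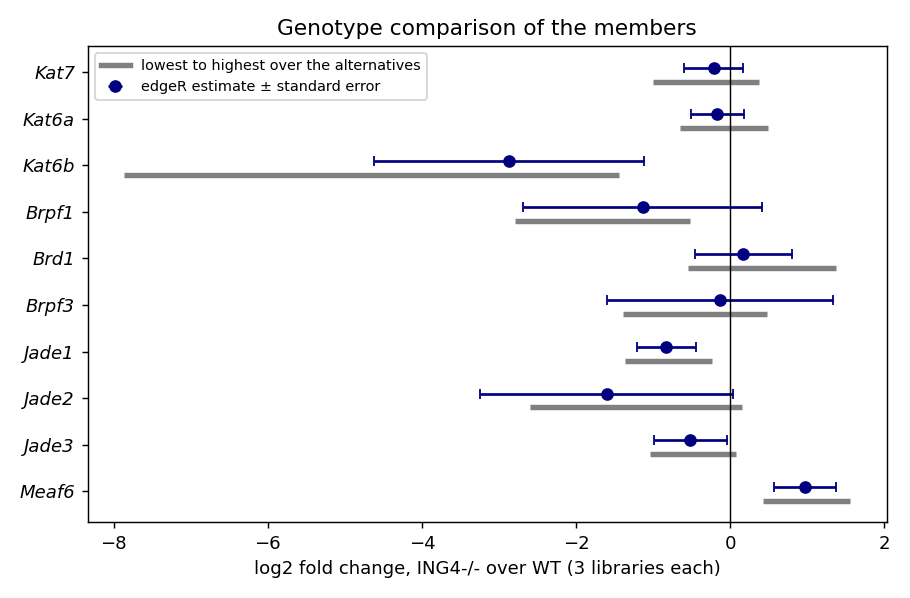
Log2 fold change of each member, ING4-/- over WT, from edgeR with 3 libraries per genotype. Points with bars are the estimate ± standard error, and the gray line below each runs from the lowest to the highest value over the alternatives. Meaf6 lies right of 0 throughout, Kat6b, Brpf1 and Jade1 lie left of 0 throughout, and the lines of the other 6 cross 0.

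Counted by overlap of the libraries, 3 of the 10 members (Jade1, Kat6b and Jade2) were lower in every ING4-/- library than in every WT library, beside 62.9% of all genes tested, and none was higher in every ING4-/- library, beside 12.0%. Net of background none of these 3 stayed apart, and Meaf6 and Brpf3 were higher in every ING4-/- library, Brpf3 against WT levels of 0. The share of all genes that did so net of background was not counted.

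The members that were uneven within ING4-/- shared this with many genes of similar counts. Brpf1, Kat6b, Brpf3 and Jade2 had 3 counts or fewer in at least 1 ING4-/- library and 488 or more in another. The WT libraries cannot be set beside this, since the background alone amounts to 92.0 or more counts for each member there. By library, 3 members were at 3 or fewer in ING4-/- LT-HSCs (Brpf1, Kat6b and Jade2), 1 in ST-HSCs (Brpf3) and 0 in MPPs. The shares went down in the same order, at 12.0%, 8.06% and 5.32%, among the 11386 protein-coding genes with at least 100 counts in an ING4-/- library. Of the 7390 protein-coding genes whose highest ING4-/- count lay in the range of the members, 488 to 5522, 815 (11.0%) had a library with 3 or fewer. That share went down with the highest count: 28.8% of genes from 488 to 1000 counts, 8.26% of those from 1000 to 2500 and 0.830% of those above. Kat6b, Brpf3 and Jade2 fall in the first of these ranges and Brpf1 in the second. Among the 9017 protein-coding genes that reached 10 counts in each library, the highest level within a genotype was 1.51 times the lowest at the median in WT, background included, and 2.05 times in ING4-/-.

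**Figure D4:**
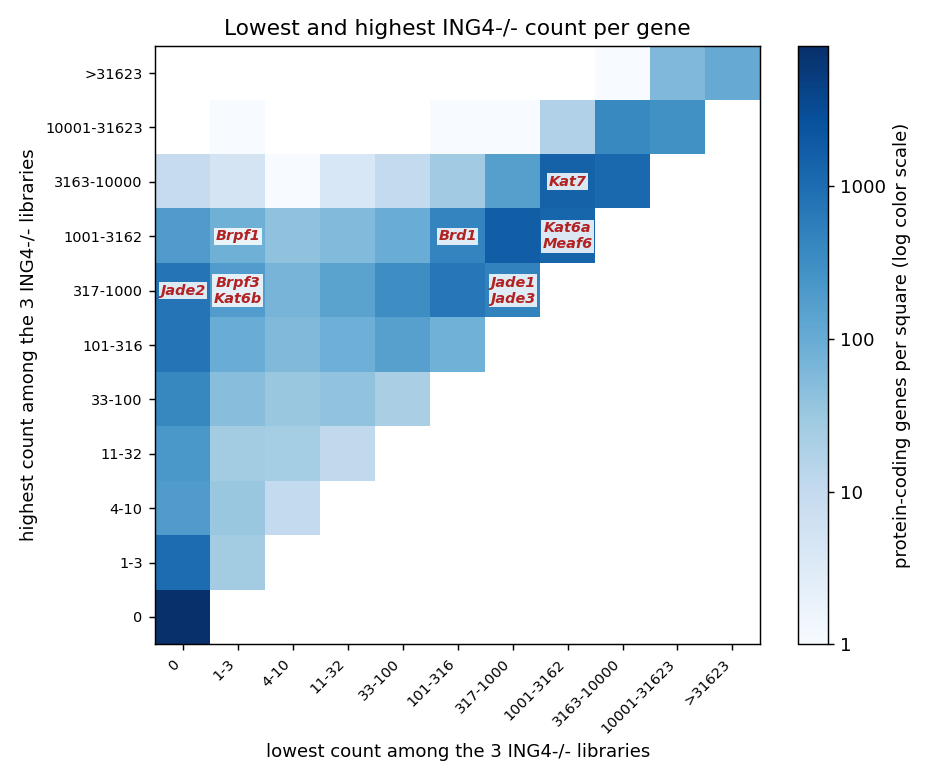
Protein-coding genes by their lowest (horizontal) and highest (vertical) count among the 3 ING4-/- libraries, with the number of genes per square on a log color scale. The members are written in the squares they fall in. Jade2, Kat6b, Brpf3 and Brpf1 lie at the left edge, with a lowest count of 0 to 2, and the other 6 lie along the diagonal or near it.

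Ordered by mean level per kb, the members in WT were Kat7 (26.4 ± 3.61 CPM per kb, SD over 3 populations), Brpf1 (8.60 ± 2.46), Meaf6 (5.45 ± 1.45), Kat6a (5.03 ± 1.71), Jade3 (4.85 ± 1.26), Jade1 (4.38 ± 0.280), Brd1 (2.90 ± 0.849), Kat6b (2.43 ± 0.900), Jade2 (2.17 ± 1.09) and Brpf3 (1.30 ± 0.291). Neighbors in that order overlapped in range except Kat7 with Brpf1 and Jade1 with Brd1. In ING4-/- the order was Kat7 (22.7 ± 10.2), Meaf6 (10.7 ± 3.93), Kat6a (4.47 ± 0.343), Brpf1 (3.91 ± 4.82), Jade3 (3.38 ± 1.12), Brd1 (3.26 ± 1.97), Jade1 (2.46 ± 0.639), Brpf3 (1.18 ± 1.30), Jade2 (0.713 ± 0.717) and Kat6b (0.332 ± 0.558). There the only neighbors without overlap were Meaf6 and Kat6a. The SD was larger than the mean for Brpf1, Brpf3, Jade2 and Kat6b in ING4-/-, the members with a nearly empty library. Kat7 made up 74.9% to 82.6% of the summed catalytic level per kb in WT and 71.3% to 85.8% in ING4-/-. The WT levels, order and shares here include background. Net of it, the WT means of Brd1, Kat6b, Jade2 and Brpf3 were 0.71, 0.53, 0.36 and 0 CPM per kb. The net catalytic sums were 23.1, 24.1 and 35.4 CPM per kb in WT and 15.4, 32.8 and 34.3 in ING4-/-. Kat7 alone stood net at 21.9 to 28.8 in WT and 11.0 to 29.4 in ING4-/-.

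Between populations, with genotype as a block, no gene was called in any of the 3 contrasts (0.0% of 36170 tested in each), members included. At an unadjusted p under 0.05 stood 624 genes for ST-HSCs against LT-HSCs, 564 for MPPs against LT-HSCs and 183 for MPPs against ST-HSCs. DESeq2 called 353, 473 and 216 genes, none of them a member. For Kat7 the log2 difference of MPPs from LT-HSCs was 0.83 ± 0.396 (SE; edgeR adjusted p = 1), and it was 0.28 without the ING4-/- LT-HSC library and 1.35 without the WT LT-HSC library. For Meaf6 it was 0.94 ± 0.472 (SE; edgeR adjusted p = 1). The largest difference of a member was that of Kat6b between ST-HSCs and LT-HSCs, at 5.42 ± 2.39 (SE; edgeR adjusted p = 1, 0.0652 to 1 over the alternatives), and without the ING4-/- ST-HSC library it was 0.92.

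Promoter windows of 300 bases were found in RefSeq for 8 of the 10 members. Those of Kat7, Meaf6 and Brpf1 printed above hold 14, 34 and 25 CG dinucleotides, and those of Brd1, Brpf3 and Jade3 hold 36, 40 and 22, beside a median of 7 (quartiles 3 and 20) over 32851 promoter windows. The GC box GGGCGG, on either strand, was found in 35.7% of all windows and in windows of 6 of these 8 members, all but Kat7 and Meaf6. The letters CCGGAAG, a core that ETS factors bind, were found on either strand in 8.86% of all windows and in those of Kat7, Meaf6 and 1 of the 4 windows of Jade1. The TATA box TATAAA, found in 13.6% of all windows, was in no window of a member. Motifs were matched by letters only and may overlap one another. Among the transcripts of the members, at most 4.00% of the 50-base words also occur in another gene (Brpf3). Brpf1 and Jade1 overlap genes on the opposite strand over 3.76% and 3.41% of their exonic bases, and the strand setting of the counting was not given in the sources used here.

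Other complexes of the same kind were counted with the same call. The lists were written with earlier results of these data known. Over all genes tested, 7.98% were called higher and 56.7% lower. With background subtracted, 1106 of 19745 genes were called higher and 7651 lower. Of 17 TIP60/NuA4 genes, 5 were called higher and 2 lower (median log2 fold change 0.19). With background subtracted, 0 were called higher and 2 lower. Ep400, the ATPase of that complex, had 1076, 931 and 1011 counts in WT and 1155, 898 and 669 in ING4-/-, a log2 fold change of -1.88 ± 0.311 (SE; edgeR adjusted p = 0.00126), which was -0.61 and no longer called (edgeR adjusted p = 0.234) with the length trend removed. Of 12 genes of the MOF complexes MSL and NSL, 0 were called in either direction (median 0.14), and 2 were called lower with background subtracted. Of 17 SIN3 deacetylase genes, the complex that ING1 and ING2 join, 6 were called higher and 0 lower (median 0.036), and 0 of 15 were called with background subtracted. The median of all genes tested was -6.85 in these counts and -0.93 after subtraction.

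The lists of this paragraph stand beside the same values over all genes tested, 7.98% called higher and 56.7% lower (median -6.85). With background subtracted those were 1106 and 7651 of 19745 genes (median -0.93). Of 12 stem cell regulators that have been reported to depend on HBO1 or MOZ, 3 were called higher and 0 lower (median 0.42), and with background subtracted 1 was called higher and 3 lower. Tal1, a transcription factor of blood stem cells, had 165, 198 and 132 counts in WT and 2531, 2515 and 2037 in ING4-/-, with a log2 fold change of 2.09 ± 0.337 (SE; edgeR adjusted p = 0.00112) that was 2.43 with background subtracted. Of 15 replication licensing genes, which include partners of HBO1 at origins, 4 were called higher and 1 lower (median 0.94). With background subtracted 0 were called higher and 1 lower. The lower gene was Orc1, the largest subunit of the origin recognition complex, with 293, 215 and 223 counts in WT and 136, 121 and 77 in ING4-/-, a log2 fold change of -2.86 ± 0.540 (SE; edgeR adjusted p = 0.00227). Klf1 and the globins are among the erythroid markers, of which only the summed CPM in the same libraries is given above. Their part in the Tal1 values was not tested.

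Across the 6 libraries, the protein-coding genes whose log2 CPM was most like that of Kat7, among 9017 searched, included Rbmx (Pearson r = 0.996) and Exoc3 (0.992). Both were low in ING4-/- LT-HSCs, where Rbmx had 244 counts and Exoc3 716, against 2043 and 2538 in ING4-/- ST-HSCs. Most like Kat6a were Arhgef1 (0.964), Carmil2 (0.960) and Phf8 (0.944), with Arhgef1 at 1382, 1439 and 2815 counts in WT and 5377, 4803 and 6066 in ING4-/-. These correlations describe 6 points that share libraries, depth and background, and no test was made on them.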

How the data were processed

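RNA from 6 libraries of sorted bone marrow cells, 1 per population and genotype, was analysed. The authors deposited raw read counts for 49315 genes per library, without normalization. A sequencing company made and sequenced the libraries. The submitters' processing notes name mm10. Aligner, counting program and strand setting were not given in the sources used here. Identifiers were matched to GENCODE GRCm38 (49056 found, 44858 with identical start and end).

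Genotypes were compared in edgeR 4.0.16 (R 4.3.3) with TMM, filterByExpr and the quasi-likelihood F test, populations with genotype as a block, and p-values were adjusted by Benjamini-Hochberg over all genes tested. DESeq2 1.42.0 was the other count test. Standard errors were taken as the size of the log2 fold change over the root of F. Levels are TMM-scaled CPM divided by exonic kb. Log2 ratios used a prior count of 2. Folds within a population carry 95% conditional binomial intervals, which, like the limit of 3 counts for a count of 0, cover counting error only. That limit is 0.320 to 0.383 CPM in WT and 0.0765 to 0.0843 CPM in ING4-/-. Background was the count per kb on olfactory and vomeronasal receptor genes, multiplied by exonic length. The alternatives were other scalings, filters and tests, background subtraction, a length trend, protein-coding genes, a population block and leaving out each library.

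Populations paired the libraries, since deviations from the genotype mean correlated within each population (LT-HSCs r = 0.143, ST-HSCs 0.110, MPPs 0.121, over 9673 genes). No pair of libraries of a genotype was a duplicate (chi-square per degree of freedom at least 27.0). The rule for the members uses no measured value, but members and gene lists were chosen with earlier results of these data known. Named were all members, Ing4 and Ing5, in each list at most 2 genes with the largest change called in the same direction with background subtracted, the 3 genes most like Kat7 and Kat6a, and the sort markers. The results for 1 of the genes most like Kat7 and for 2 markers are not reported here. The other marker genes at 0, Klf1 and the globins were named after their values were seen. The scripts were tested on simulated counts. Promoters came from the RefSeq table of GRCm38.p6, and proteins were not used here.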

Additional observations from a re-analysis of the deposited data

Results flagged for a closer look

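As counted, for 5 members the ING4-/- library was higher than WT in at least 1 population and lower in another, with 1 library per genotype in each. The spread was taken as the highest minus the lowest log2 ratio of ING4-/- to WT over the 3 populations, background included. It was 7.40 for Brpf3 (highest in LT-HSCs, lowest in ST-HSCs) and 2.83 for Brd1 (highest in MPPs, lowest in ST-HSCs). WT counts of Brpf3 were below background throughout, so its directions against WT were not detectable apart from that background. WT counts of Brd1 were 1.11 to 1.54 times the background, and net of it Brd1 was higher in ING4-/- in all 3 populations. The spread was 1.34 for Jade3 (highest in ST-HSCs, lowest in LT-HSCs), 1.33 for Kat7 (highest in ST-HSCs, lowest in LT-HSCs) and 0.80 for Kat6a (highest in LT-HSCs, lowest in MPPs). The difference between populations was not tested, since no population had a second library of either genotype.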

How the results depend on the processing

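Over all genes, 20041 were called between genotypes, against 1739 with at least 10 counts in every library, 8757 with background subtracted, 793 with both, 1266 with the length trend removed and the same minimum, 8637 among protein-coding genes only and 1718 with a population replicate block and the minimum; without 1 library 19943 to 22874 were called, and with the replicate block alone 18879. Between populations 0 were called, against 353, 473 and 216 by DESeq2 (ST-HSCs against LT-HSCs, MPPs against LT-HSCs, MPPs against ST-HSCs), 2 for MPPs against LT-HSCs with the minimum and 1 with background subtracted and the minimum. Of the members 0 were called, against 1 each with DESeq2 size factors, upper-quartile scaling, the minimum of 10, DESeq2, protein-coding genes only and the replicate block, and 0 to 1 without 1 library.

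Signs turned as follows. With upper-quartile scaling the log2 fold changes of Kat7, Kat6a, Jade3, Brpf3 and Ing5 were 0.37, 0.42, 0.076, 0.45 and 0.23, Kat6a was 0.49 with the length trend removed, and Jade2 was 0.15 with background subtracted. Brd1 was -0.21 with DESeq2 size factors, -0.36 with the minimum, -0.19 by DESeq2, -0.18 among protein-coding genes, -0.036 with the replicate block and -0.54 with the block and the minimum. Without 1 library Kat7 ranged from -0.42 to 0.14, Brd1 from -0.22 to 0.61 and Brpf3 from -1.39 to 0.47. The replicate block brought a call of Kat6b (-6.36) and ended that of Ing4 (edgeR adjusted p = 0.0783), and together with the minimum it ended that of Jade1 (-1.37, edgeR adjusted p = 0.0790). The cause of these changes was not tested. Among single genes, 239 comparisons kept direction and call, 19 turned sign, 8 gained and 8 lost a call.

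Background limits the WT libraries: Brpf3 lay below the background in all of them, Kat6b and Jade2 in at least 1, and a change of these genes between genotypes was not detectable apart from that background. Leaving out 1 ING4-/- library moved the values of Brpf1, Brpf3, Jade2 and Kat6b by over 1.5 times, as given in the report beside each.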
